A study of Mus musculus with 2 samples.

Results

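Cd34-high cells are the 20% of cells with the highest Cd34 share in each of 2 single-cell RNA libraries of mouse MLL-AF9 leukaemia. A cell's score was its Cd34 UMIs (unique molecular identifiers, tags that mark single RNA molecules) divided by all of its UMIs. The top 20% of kept cells gave 121 cells of 608 in the Renilla library and 115 of 575 in the Jumonji library, or 236 of 1183 in all. They are set against the same number of cells with the lowest score in the same library, called Cd34-low cells. Members were thus chosen by Cd34 and cell totals alone, so levels of Cd34 are given as a description and other genes carry the results.

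Both cultures were mouse primary leukaemia cells that carry the MLL-AF9 fusion oncogene and Cas9, a nuclease guided to its target by a single guide RNA. They grew in RPMI medium with 10% serum and 10 ng/ml mouse interleukin-3 (IL-3), a growth factor of myeloid progenitors, per the labels. The Jumonji library came from cells with a guide RNA directed at the Jumonji domain of Jmjd1c, a histone demethylase gene. The Renilla library came from cells with a control guide RNA against Renilla luciferase, which has no target in the mouse genome. Each condition had 1 library, so no difference has a replicate check and none was tested. The 95% intervals given below cover counting error only, for UMIs summed over cells.

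CD34 is a sialomucin, a heavily glycosylated surface protein, found on blood stem and progenitor cells and on vessel endothelium. On haematopoietic cells it takes part in adhesion and homing, and it is used to enrich progenitors. In the mouse it is carried by granulocyte-monocyte progenitors, the population that MLL-AF9 leukaemia-initiating cells resemble, and it is lost as granulocytes mature. Mast cells and some other mouse myeloid cells also keep it, so Cd34 alone does not name a cell type.

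Cd34 (chromosome 1, 194938819 to 194961279, plus strand, mm10) was a graded trait without a gap between members and other cells. Cells were ranked into 5 equal score groups, with group 1 the Cd34-low and group 5 the Cd34-high cells. In the Renilla library the summed Cd34 level was 74.0, 194, 289, 425 and 698 CPM (UMIs of the gene scaled to a common total of UMIs) from group 1 to group 5. Across the Jumonji groups it was 210, 399, 556, 735 and 1278 CPM. A Renilla Cd34-high cell held a median of 14 Cd34 UMIs (quartiles 12 and 19, range 4 to 58), and a Jumonji one held 19 (quartiles 13 and 24, range 5 to 45). Cd34-low cells held medians of 1 and 5, and 23 Renilla and 4 Jumonji cells had no Cd34 UMI. The lowest member scored 506.9 CPM in the Renilla library, next to a highest non-member at 506.9. The same pair was 901 and 896 CPM in the Jumonji library. Within 10% of the cut lay 67 Renilla cells, 34 of them members, and 46 Jumonji cells, 21 of them members. With 1 Cd34 UMI less, 31 Renilla and 14 Jumonji members would have lost their place, so membership near the cut was set by single molecules.

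**Figure D1:**
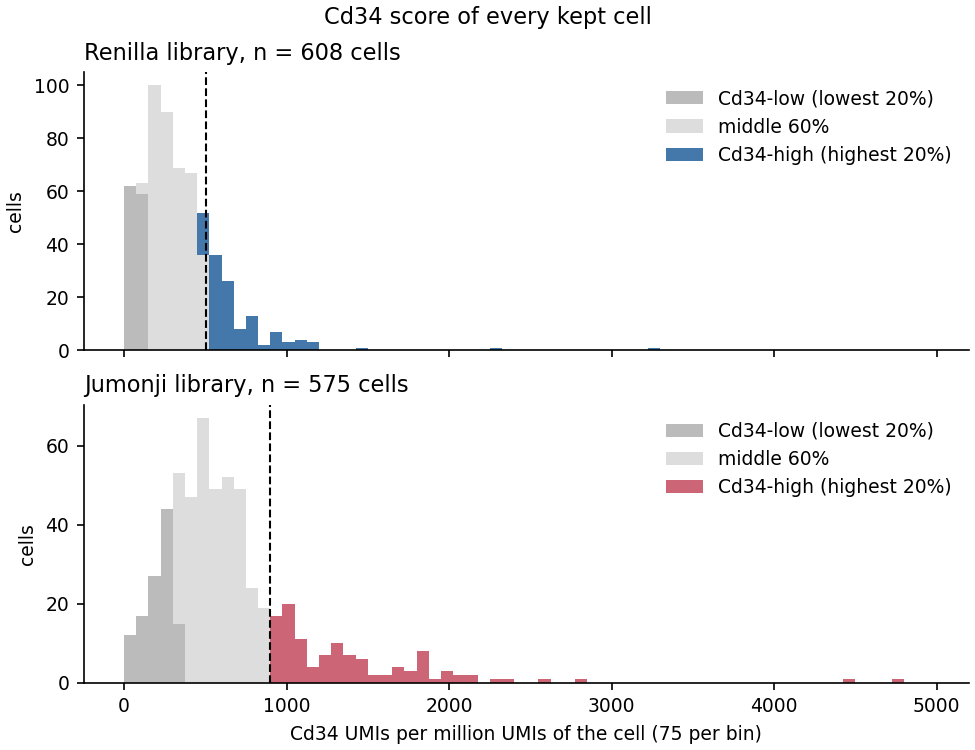
Cd34 score of each kept cell (CPM, x axis) against the number of cells (y axis), Renilla library above and Jumonji library below. Cd34-high cells are coloured, Cd34-low cells dark grey, and the dashed line is the cut, at 506.9 CPM in the Renilla and 901 CPM in the Jumonji library.

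The Jumonji scores lay higher as a whole. Of its 575 cells, 322 (56.0%, exact binomial 51.8 to 60.1) scored at or above the Renilla cut, against 121 of 608 Renilla cells. The Cd34-low cells of the Jumonji library, at 210 CPM (193 to 228), stood above Renilla score group 2. The members of the libraries are therefore matched by rank and not by level. Cd34 varied over cells more than most genes of like abundance. Its variance over the Poisson expectation was 4.11 in the Renilla library, where 2 of 171 genes with a mean within 20% exceeded it and their median was 1.39. It was 5.29 in the Jumonji library, where 9 of 95 such genes exceeded it and their median was 2.05.

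Renilla members had the depth of other cells, and Jumonji members did not. The median was 22618 UMIs and 4163 detected genes in Renilla Cd34-high cells, against 22824 UMIs and 4279 genes in Cd34-low cells. Jumonji Cd34-high cells had 14194 UMIs and 3220 genes against 23114 UMIs and 4232 genes. The rank correlation of score and total UMIs was -0.01 over Renilla cells and -0.32 over Jumonji cells, a description in which the score and the total share the total. Thinned to 10000 UMIs a cell, which left out 9 Renilla and 29 Jumonji members, the Jumonji medians were 2705.5 genes in Cd34-high and 2743 in Cd34-low cells. The median mitochondrial share was 3.29% against 3.58% in the Renilla library and 3.02% against 2.56% in the Jumonji library. Because depth moved with the score in the Jumonji library, ratios are also given for high and low cells taken within 5 equal groups of total UMIs, called depth-matched. No doublet call fell on a member, and no barcode was shared by the libraries.

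The genes that stood higher with Cd34 in both libraries included Adgre1 and Wfdc17 of the monocyte and macrophage list, the progenitor-list gene Ifitm1 and the myeloid transcription factor gene Irf8. A gene counts as higher or lower at a ratio of at least 2 with at least 100 UMIs over both sides. In the Renilla library 25 of 5102 genes (0.490%) were higher and 21 (0.412%) lower in Cd34-high than in Cd34-low cells. In the Jumonji library 171 of 4600 (3.72%) were higher and 98 (2.13%) lower. Of the 4383 genes with enough UMIs in both, 20 (0.456%) were higher in both, Cd34 among them, which is 83.3% of the 24 Renilla genes and 18.5% of the 108 Jumonji genes. Besides Cd34, 15 of the other 19 were on none of the gene lists. Another 12 (0.274%) were lower in both, 66.7% of the 18 Renilla and 12.6% of the 95 Jumonji genes. No gene passed 2-fold in opposite directions, and the contrasts share no cells.

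**Figure D2:**
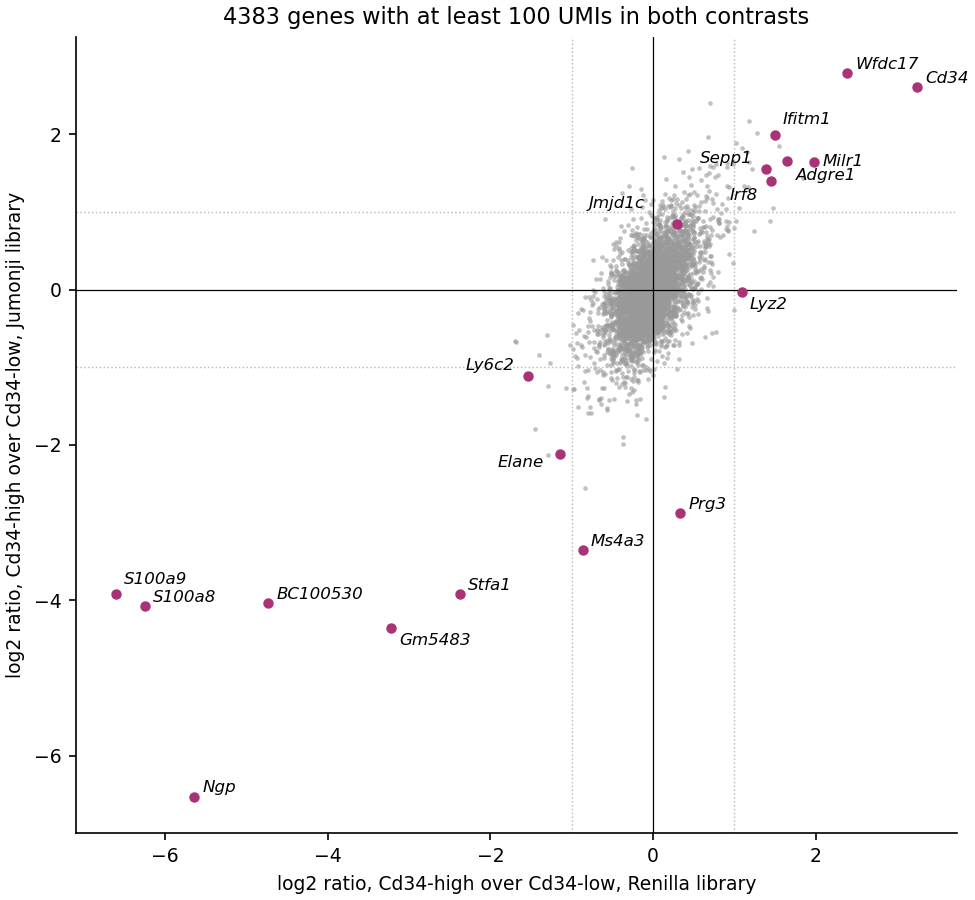
Log2 ratio of Cd34-high over Cd34-low cells for 4383 genes, Renilla library on the x axis and Jumonji library on the y axis; dotted lines mark 2-fold. Genes past 2-fold in both libraries lie in the upper right (20, with Cd34 and Wfdc17 the farthest out) and lower left (12, with Ngp, S100a8 and S100a9 the farthest out), and Ms4a3, Prg3 and Lyz2 lie off the diagonal.

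Wfdc17, which encodes a small secreted protein of activated myeloid cells, ranked next to Cd34 among the genes higher in both libraries. Its level across Renilla score groups 1 to 5 was 6.38, 5.37, 6.23, 7.0 and 33.2 CPM, so only the highest group stood apart. Across the Jumonji groups it was 125, 115, 183, 336 and 860 CPM. The log2 ratio of high over low was 2.38 (1.62 to 3.22) in the Renilla and 2.79 (2.61 to 2.96) in the Jumonji library, the latter 1.71 depth-matched. The Renilla excess sat in few cells: 27 of 121 Cd34-high cells (22.3%) had a Wfdc17 UMI against 11 of 121 Cd34-low cells (9.09%). The 10 highest cells held 81.1% of the Cd34-high UMIs, and the highest cell alone held 38 of the 90. In the Jumonji library 106 of 115 (92.2%) against 70 of 115 (60.9%) had a Wfdc17 UMI. Among thinned cells the Renilla shares were 10.7% (5.66 to 18.0) and 7.27% (3.19 to 13.8), with overlapping intervals. The Jumonji shares of thinned cells were 83.7% and 41.7%. The Renilla difference in the share of cells with a UMI was thus not clear in thinned cells.

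Adgre1, the gene of the macrophage surface protein F4/80, climbed in steps in both libraries. It was 22.5 CPM in Renilla Cd34-low and 70.5 in Cd34-high cells, and 64.4 and 202 CPM in the Jumonji library. The log2 ratio was 1.65 (1.22 to 2.09) and 1.65 (1.39 to 1.92). Irf8, the transcription factor that directs progenitors toward monocytes and away from granulocytes, went from 22.9 to 62.8 CPM and from 66.6 to 175 CPM, with log2 ratios of 1.45 (1.02 to 1.90) and 1.39 (1.12 to 1.67). Ifitm1, an interferon-inducible membrane protein gene also listed here as a progenitor marker, went from 119 to 335 CPM and from 520 to 2066 CPM, with log2 ratios of 1.49 (1.31 to 1.68) and 1.99 (1.90 to 2.08). Milr1, an inhibitory receptor of mast cells, had log2 ratios of 1.98 (1.36 to 2.64) and 1.64. Sepp1, which encodes the selenium carrier selenoprotein P, had 1.39 and 1.54. The others included the autophagy-linked Sh3glb1 (1.84 and 1.43), the histone gene Hist1h2bc (1.55 and 1.85) and Ypel3 (1.21 and 1.55). Depth-matched, the Jumonji ratios of Sepp1, Hist1h2bc and Ypel3 were 0.92, 0.83 and 0.73. All 20 stayed above 0 in both libraries in the depth-matched sets, and 13 stayed past 2-fold in both.

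**Figure D3:**
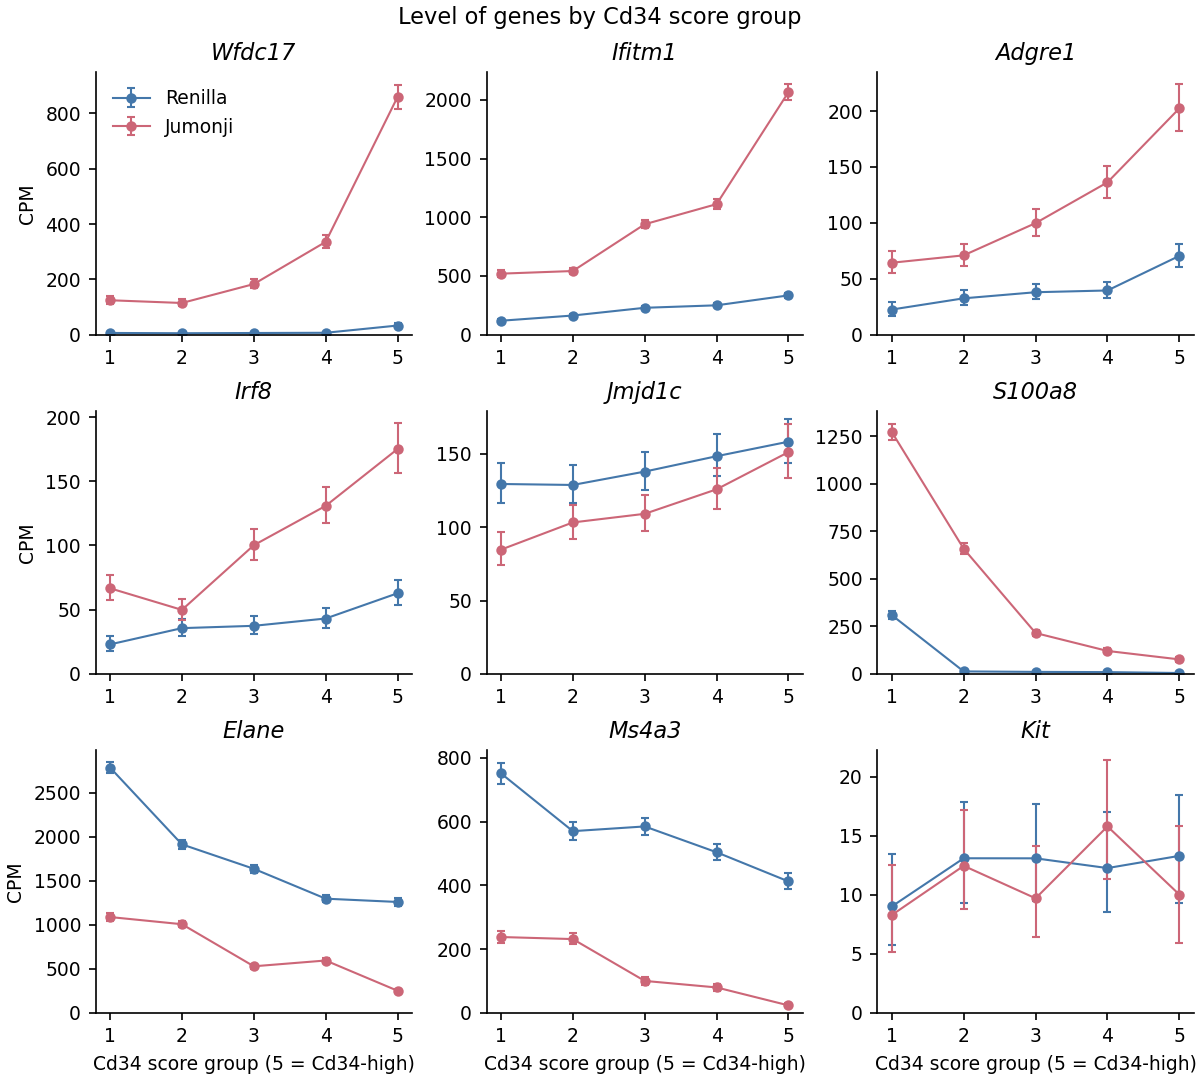
Summed level (CPM, y axis from 0) of 9 genes in the 5 Cd34 score groups (x axis, 5 = Cd34-high) of the Renilla (blue) and Jumonji (red) libraries; bars are exact 95% Poisson intervals of the sums. Wfdc17, Ifitm1, Adgre1 and Irf8 are highest in group 5 of both libraries, S100a8, Elane and Ms4a3 are highest in group 1, and the Kit intervals overlap in all groups.

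Of the 12 genes lower with Cd34 in both libraries, 4 were of the secondary granule and neutrophil list (S100a8, S100a9, Ngp and Ly6c2), Elane was of the primary granule list and 7 were on no list. S100a8, a subunit of the calcium-binding protein calprotectin of neutrophils, was 309, 12.4, 9.97, 8.75 and 4.06 CPM from Renilla group 1 to group 5, and 1272, 658, 214, 120 and 75.6 CPM in the Jumonji groups. Its log2 ratio was -6.25 (-7.26 to -5.40) and -4.07 (-4.33 to -3.82). S100a9, the partner subunit, had -6.60 and -3.92. Depth-matched, the Jumonji ratios of S100a8 and S100a9 were -6.06 and -7.26. Ngp, a secondary granule protein gene, had 6 against 294 UMIs in the Renilla and 2 against 272 in the Jumonji library. The stefin A genes, which encode cysteine protease inhibitors of maturing myeloid cells, were lower too: BC100530 at -4.73 and -4.03, Gm5483 at -3.23 and -4.35 and Stfa1 at -2.38 and -3.92. These are near-identical copies among which counting can divide reads, so the single values are uncertain. The neutrophil list as a whole was mixed. It had 1 gene 1.5-fold higher and 6 lower of 10 in the Renilla library, with a median of -1.22, and 2 higher and 4 lower of 10 in the Jumonji library, with a median of -0.17 (-0.69 depth-matched). Its member Lyz2, lysozyme, was higher in the Renilla library at 1.09 and at -0.04 in the Jumonji library.

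The S100a8 difference came from few cells in the Renilla library and from more cells, unevenly, in the Jumonji library. In Renilla Cd34-low cells the 10 highest cells held 90.9% of the S100a8 UMIs, and 36 of 121 cells (29.8%) had at least 1. In Jumonji Cd34-low cells the 10 highest held 59.4%, and 73 of 115 (63.5%) had at least 1. Among Cd34-high cells the share with a UMI was 6.61% in the Renilla and 12.2% in the Jumonji library. The highest of these Jumonji cells held 108 of the 136 S100a8 UMIs. Free RNA in droplets can also give such UMIs, and no cell type known to lack these genes was present as a reference. Without the 25% of cells with the most RNA of mature granulocytes, monocytes and eosinophils, Renilla S100a9 was 0.26 on 9 UMIs in all. Of the 12 genes 4 then stayed past 2-fold in both libraries. Those cells were chosen on lists that hold S100a8, S100a9, Ngp and Ly6c2, so fewer UMIs of these genes were built into the choice.

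Genes of the promyelocyte stage did not move together. Elane, neutrophil elastase, went from 2788 CPM in Renilla Cd34-low to 1260 in Cd34-high cells and from 1089 to 251 CPM in the Jumonji library, with log2 ratios of -1.15 (-1.20 to -1.09) and -2.12 (-2.26 to -1.97). Prtn3, proteinase 3, had -0.85 and -1.19. Mpo, myeloperoxidase, had only -0.43 and -0.44, and Ctsg, cathepsin G, -0.82 and -0.61. Depth-matched, the Jumonji ratio of Mpo turned to 0.17 (-0.11 to 0.46), that of Ctsg was -0.17 (-0.47 to 0.13) and that of Elane -1.41. Ms4a3, a surface marker of granulocyte-monocyte progenitors and promyelocytes, was -0.87 (-0.97 to -0.76) in the Renilla and -3.35 (-3.84 to -2.90) in the Jumonji library, the latter -2.13 depth-matched. In the other direction Cst7 (cystatin F) had 0.48 and 1.54, and Ctsc, the protease that activates granule serine proteases, 0.41 and 1.17. The primary granule list had 0 genes 1.5-fold higher and 4 lower of 13 in the Renilla library, and 3 higher and 4 lower of 12 in the Jumonji library. Over all genes 2.88% were 1.5-fold higher and 3.57% lower in the Renilla library, and 10.9% and 9.17% in the Jumonji library. The 1.5-fold counts of every list within a library are to be read beside these shares. The primary granule list's Jumonji median of -0.19 became 0.12 in the depth-matched sets. Ly6c2, a surface antigen of monocytes and granulocytes, was lower at -1.53 and -1.11, and Cebpe, a transcription factor of granulocyte maturation, at -0.64 and -1.39.

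Other progenitor genes did not follow Cd34 as a block. Kit, the stem cell factor receptor, was at 9.01, 13.1, 13.1, 12.3 and 13.3 CPM from Renilla group 1 to 5 and at 8.28, 12.5, 9.70, 15.8 and 10.0 CPM in the Jumonji groups, with overlapping intervals and too few UMIs for a ratio. Kit was seen in 31 of 121 Renilla and 17 of 115 Jumonji Cd34-high cells, against 19 and 17 Cd34-low cells. Of the stem and progenitor list 8 genes had enough UMIs in the Renilla library, with 2 at least 1.5-fold higher (Ifitm1 and Ptprcap), 0 lower and a median of 0.28. Of the Jumonji counts 7 were high enough, with 4 higher, 0 lower and a median of 0.92. These were Ifitm1, Cd48 (1.61), a ligand of SLAM-family receptors, Ptprcap (1.17), a partner of the phosphatase CD45, and Cd93 (0.92), a C-type lectin-like receptor. Depth-matched, their Jumonji ratios were 1.62 for Ifitm1, 1.45 for Cd48, 0.62 (0.17 to 1.09) for Ptprcap and 0.65 for Cd93. Renilla Ptprcap was at 0.48 in the depth-matched sets. The stem cell genes Hlf and Mecom had 0 UMIs in all 4 groups of cells. Among sialomucins and their partners, Cd164 (endolyn) was 0.39 and 0.83 and Selplg (the P-selectin ligand) 0.48 and 0.94, the Jumonji values 0.50 and 0.66 depth-matched.

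Genes of the MLL-AF9 programme, the Hoxa genes, Meis1 and their partners, varied little with Cd34 in the Renilla library, where 1 of 20 was 1.5-fold higher, 1 lower and the median was 0.04. In the Jumonji library 7 of 18 were higher, 0 lower and the median was 0.35, or 0.23 in the depth-matched sets. Over all genes 10.9% were 1.5-fold higher and 9.17% lower in that library, and 2.88% and 3.57% in the Renilla library. Bcl2, the anti-apoptotic gene, was the highest of the list in both (0.92, 0.40 to 1.44, and 1.18, 0.62 to 1.75). Runx1, a transcription factor of blood formation, was at -0.02 (-0.38 to 0.33) in the Renilla and 1.10 (0.77 to 1.43) in the Jumonji library, the latter 0.53 in the depth-matched sets. Dot1l, a histone methyltransferase recruited by MLL fusions, was the lowest of the list, at -0.68 and -0.57.

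The targeted gene Jmjd1c (chromosome 10, 67096125 to 67256326, plus strand, mm10) stepped up with Cd34 in the Jumonji library and differed less in the Renilla library. It was 130, 129, 138, 148 and 158 CPM across Renilla groups 1 to 5 and 84.7, 103, 109, 126 and 151 CPM across the Jumonji groups. The log2 ratio was 0.29 (0.08 to 0.50) in the Renilla and 0.84 (0.58 to 1.10) in the Jumonji library. Compared between libraries, Jmjd1c was -0.61 (-0.86 to -0.37) in Cd34-low cells and -0.07 (-0.29 to 0.16) in Cd34-high cells. Its Jumonji ratio of high over low was 0.79 in the depth-matched sets and 0.43 among cells without a UMI of Ctss, the cathepsin S gene of monocytes and macrophages. The Renilla ratio was 0.19 (-0.02 to 0.39) and 0.32 (0.10 to 0.53) in the same settings. With cells chosen and genes measured on separate UMIs, the ratios were 0.54 (Jumonji) and -0.04 (-0.34 to 0.25, Renilla). The Cd34-high value between libraries was -0.04 (-0.24 to 0.17) depth-matched and -0.39 (-0.73 to -0.06) in thinned cells. Among cells without a Ctss UMI that value was -0.52 (-0.78 to -0.25). Counts of 3′ ends do not show whether the gene was edited. Its paralogue Kdm3a was too low to compare, with 16 to 35 UMIs in the 4 groups. Its paralogue Kdm3b, with 41 to 68, reached the count minimum in the Renilla contrast at -0.38, or -0.32 (-0.85 to 0.21) depth-matched. Between the Cd34-low cells of the libraries Kdm3b was at -0.73. It was too low in the Jumonji contrast and between the Cd34-high cells. Of the IL-3 receptor chains, Il3ra (the IL-3-specific chain) had ratios of 0.39 and 1.07, Csf2rb (the shared signalling chain) 0.32 and 0.26, and Csf2ra (the GM-CSF-specific chain) -0.23 and 0.55. Depth-matched, the Jumonji ratios were 0.52 (0.18 to 0.86) for Il3ra, 0.10 for Csf2rb and 0.24 for Csf2ra. Among cells without a Ctss UMI, Jumonji Il3ra was at 0.32 (-0.13 to 0.77).

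Several of the genes farthest higher in Jumonji Cd34-high cells had few UMIs in the Renilla library. Ctss had 386 against 104 UMIs there (2.46, 2.14 to 2.78), and 84 of 115 Cd34-high cells (73.0%, exact binomial 64.0 to 80.9) had a Ctss UMI against 20 of 115 Cd34-low cells (17.4%). Thinned to 10000 UMIs, the shares were 59.3% and 10.7%. In the Renilla library 10 and 4 of 121 cells had one. Cd200r4, an activating myeloid receptor, had 213 against 7 UMIs (5.49, 4.42 to 6.82) in the Jumonji library and 13 against 0 in the Renilla library. Ctla2a, a protease inhibitor gene with a near-identical neighbour, had 219 against 9 UMIs (5.17), but 10 cells held 73.5% of the Cd34-high UMIs. Itgb7, an integrin chain of gut homing, had 2.80, the calcium-binding protein gene S100a4 3.06, Slfn2 2.70 and Cyp4f18 3.53. Each of these had at most 57 UMIs in either Renilla group. Depth-matched, the Jumonji ratios were 1.47 for Ctss, 4.73 for Cd200r4, 3.99 for Ctla2a, 2.12 for Itgb7, 2.29 for S100a4, 1.75 for Slfn2 and 2.40 for Cyp4f18. Ctss is of the monocyte and macrophage list and Itgb7 of the adhesion list, and the others are on no list.

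The measured members of the monocyte and macrophage list stood high in both libraries. All 6 measured in the Renilla library were at least 1.5-fold higher, with a median of 0.87, and so were 6 of 7 in the Jumonji library, with a median of 1.10. Lgals3 (galectin-3) had 0.84 and 1.10, and Fcgr3, a low-affinity IgG receptor, 0.90 and 0.88. Depth-matched, the Jumonji ratio of Lgals3 was 0.28 (0.16 to 0.41) and that of Fcgr3 0.54. The list's summed level per cell had a median of 281 CPM in Renilla Cd34-low and 471 in Cd34-high cells, and of 767 and 2665 CPM in the Jumonji library. Of the 19 listed genes 12 to 13 did not reach the count minimum. C1qa, a defining gene of tissue macrophages, had 0 UMIs in all 4 groups, and Cx3cr1 had 0 in both Cd34-high groups. In the depth-matched sets the medians were 1.04 and 0.70.

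Class I antigen presentation and lysosomal genes were higher mainly in the Jumonji contrast. All 7 measured class I genes were at least 1.5-fold higher there, with a median of 0.81 (0.67 depth-matched), against 2 of 7 and a median of 0.34 in the Renilla library. Tap2, a peptide transporter subunit, had 1.61 and 0.77, and B2m, the class I light chain, 0.75 and 0.42, but depth-matched B2m had 0.34 in the Jumonji and 0.37 in the Renilla library. The H2 genes have close copies and their single values are uncertain. Of the lysosome list 11 of 17 were higher and 1 lower in the Jumonji library, with a median of 0.76, or 0.33 in the depth-matched sets. In the Renilla library it was 2 of 15 higher, 0 lower and a median of 0.23. Ctsd (cathepsin D) had 1.41 and 0.59, and Psap (prosaposin) 1.22 and 0.43, the Jumonji values 0.73 and 0.55 depth-matched. Of 4 measured interferon genes, Ly6e was the highest at 1.47 and 0.65.

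Genes of DNA replication were lower in Cd34-high cells. Of 41 measured S phase genes 0 were 1.5-fold higher and 5 lower in the Renilla library, with a median of -0.27 against -0.04 over all genes. Of 36 in the Jumonji library 0 were higher and 18 lower, with a median of -0.60 against -0.04. Rad51ap1, a recombination factor, was the lowest there at -1.66 (-2.24 to -1.12), with -0.09 (-0.44 to 0.26) in the Renilla library. Uhrf1, which maintains DNA methylation at replication, had -1.12 and -0.23, and Rrm2, a subunit of ribonucleotide reductase, -1.12 and -0.37. Depth-matched, the Jumonji ratios were -0.59 (-0.98 to -0.21) for Rad51ap1, -0.60 for Uhrf1 and -0.38 for Rrm2. Per cell, the S phase list took a median of 2986 CPM in Renilla Cd34-high against 3737 in Cd34-low cells, and 1431 against 3284 CPM in the Jumonji library. Thinned to 10000 UMIs these were 30.5 against 38 and 18.5 against 35 UMIs. The depth-matched medians were -0.30 and -0.38.

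The G2/M list behaved differently once depth was matched. Its median was -0.13 in the Renilla and -0.40 in the Jumonji library, with 12 of 40 genes lower and 0 higher in the latter. In the depth-matched sets the Jumonji median was 0.04, while thinning each cell to 10000 UMIs left it at -0.47. The part of depth in this difference was not tested beyond these settings. Cdca2, a mitotic chromatin protein gene, was the lowest in the Renilla library at -1.02 (-0.71 in the Jumonji library), and Cenpf, a kinetochore protein gene, was among the lowest in the Jumonji library at -0.92 (0.05 in the Renilla library), which became 0.13 in the depth-matched sets.

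**Figure D4:**
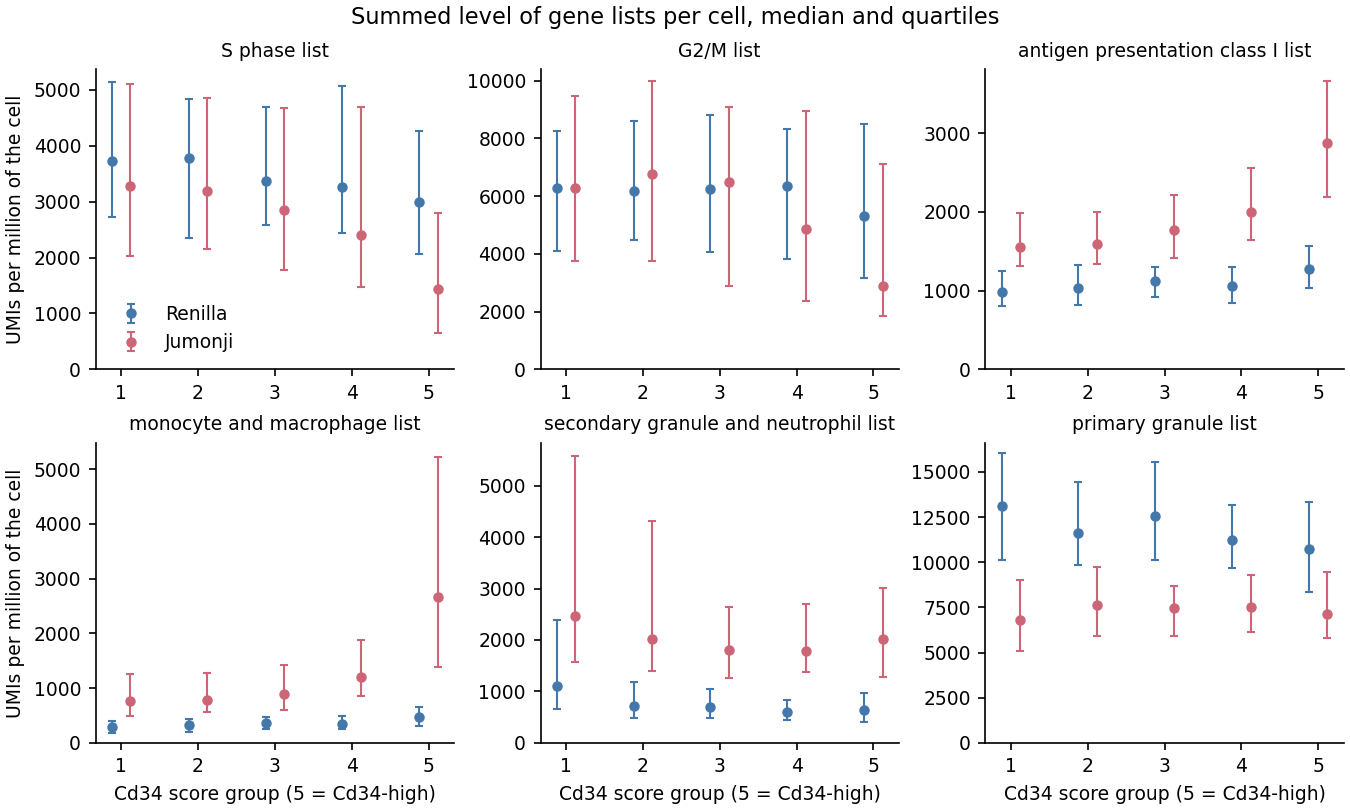
Median and quartiles over cells of the summed level of 6 gene lists (CPM, y axis from 0) in the 5 Cd34 score groups (x axis, 5 = Cd34-high) of the Renilla (blue) and Jumonji (red) libraries. The monocyte list reaches a median of 2665 in Jumonji group 5, while its S phase list falls to 1431; Renilla groups differ less.

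Cd34-high cells overlapped unevenly with other states of the culture, each taken as the top 20% of cells of a library by the share of a gene pair. An overlap unrelated to Cd34 would be near 20%. Of Jumonji Cd34-high cells 64 (55.7%, 46.1 to 64.9) were among the cells highest in Ctss and Wfdc17, against 9 Cd34-low cells (7.83%). In the Renilla library the counts were 38 (31.4%) and 16 (13.2%), and 13 of those 121 top cells had neither transcript. Among cells highest in S100a8 and S100a9 were 4 Jumonji Cd34-high against 46 Cd34-low cells, and 13 against 40 in the Renilla library. The cells highest in Mpo and Ctsg took in 19 Jumonji Cd34-high (16.5%) and 20 Cd34-low cells (17.4%), and 13 against 33 in the Renilla library. Among cells highest in Prg2 and Prg3, which encode eosinophil granule proteins, were 6 against 36 in the Jumonji library and 32 against 19 in the Renilla library. The interval of the 32 Renilla Cd34-high cells (26.4%, 18.8 to 35.2) held 20%. Prg2 itself had 1 against 188 UMIs in the Jumonji library, and 10 cells held 98.4% of the latter. Prg3 was at -2.88 in the Jumonji and 0.33 (-0.16 to 0.83) in the Renilla library. The Jumonji value was -1.29 depth-matched, -0.75 in thinned cells and -0.51 without Ctss-positive cells, and the Renilla one turned to -0.15 in thinned cells. Lymphoid markers summed to 2 to 15 UMIs in each of the 4 groups, megakaryocyte markers to 17 to 54 and endothelial and stromal markers to 28 to 67.

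The Jumonji Cd34-high cells were further described by whether a Ctss UMI was seen, which also depends on depth. The 84 with a Ctss UMI had a median of 12662 UMIs and the 31 without one 18863. Cd34 itself was 1333 CPM in the former and 1157 in the latter. With Ctss went Wfdc17, at 1162 against 197 CPM, and Ifitm1, at 2411 against 1308 CPM. The monocyte list, which contains Ctss, was at 3514 against 1322 CPM and the S phase list at 2212 against 2760 CPM. Elane was low in both, at 270 and 208 CPM, and Mpo at 63.1 and 56.9 CPM. With high and low taken anew from cells without a Ctss UMI (72 cells a side in the Jumonji library), 28 genes were 2-fold higher and 26 lower in place of 171 and 98. Adgre1 was then at 1.22, Ifitm1 at 1.70, Wfdc17 at 1.90, Elane at -1.33 and Irf8 at 0.76. Sides of 72 cells in place of 115 also change which genes reach the count minimum. The gene counts are therefore not shares of the same genes.

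Between the libraries, Cd34-high cells differed in more genes than either contrast within a library counted at 2-fold. Of 4617 genes 313 (6.78%) were at least 2-fold higher and 106 (2.30%) lower in Jumonji than in Renilla Cd34-high cells. In Cd34-low cells 174 of 5127 (3.39%) were higher and 42 (0.819%) lower. Farthest apart was the immunoglobulin-like receptor gene Lilrb4a, with 303 against 7 UMIs (6.03, 4.97 to 7.35). Other immunoglobulin-like receptor genes were Lilra6, with 196 against 8 UMIs (5.21), and Pira2, with 361 against 28 (4.28). Such genes have close copies, so their single values are uncertain. Wfdc17 was at 4.69, Nov, which encodes a matricellular growth regulator, at 4.91, Lsp1, an actin-binding leukocyte protein gene, at 4.59, Plek (pleckstrin) at 4.61 and Ctss at 4.38. Lower were Ms4a3 (412 against 23.4 CPM; -4.14, -4.62 to -3.70), Mpo (488 against 61.2 CPM; -3.0), Ctsg (-2.74), Elane (-2.33) and Prtn3 (-1.55). Outside the granule genes, Fam212a was at -2.16 and the mitochondrial protein gene Chchd10 at -2.07. Depth-matched, these ratios kept their direction, with 5.42 for Lilrb4a, 3.63 for Wfdc17, 3.66 for Lsp1, 3.41 for Ctss, -2.86 for Ms4a3, -1.56 for Elane and -1.50 for Fam212a. In Cd34-low cells Wfdc17 was at 125 CPM in the Jumonji and 6.38 in the Renilla library, Elane at 1089 and 2788, and Ms4a3 at 238 and 752. For these genes the difference between libraries was therefore not particular to Cd34-high cells. The level of Cd34 in Cd34-high cells differed too, at 0.87 (0.78 to 0.96), and that in Cd34-low cells at 1.51. Each library had its own cut. Over all kept cells Cd34 was at 586 CPM in the Jumonji and 333 in the Renilla library. With the Renilla cut in both libraries, which takes 322 Jumonji cells, 313 genes were higher and 56 lower. The larger number of cells also changes which genes reach the count minimum, so these counts are not on the same total.

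Among lists with at least 5 genes measured, the comparison between libraries was highest for neutrophil genes (median 1.74 over 7 genes), monocyte genes (1.45 over 8), class I genes (1.22 over 7), lysosomal genes (1.20 over 16) and adhesion genes (1.14 over 14). It was lowest among them for primary granule genes (-0.90 over 12), the serine synthesis and ATF4 list (-0.61 over 10) and ribosome biogenesis (-0.60 over 19, 11 of them 1.5-fold lower and 0 higher). Over all genes the median was -0.04, with 14.6% at least 1.5-fold higher and 11.7% lower. Depth-matched, these medians were 1.21, 1.00, 0.83, 0.88, 0.91, -0.47, -0.22 and -0.48 in the same order. Between the Cd34-low cells of the libraries, not depth-matched, they were 1.29, 2.20, 0.55, 0.63, 0.74, -0.47, -0.46 and -0.49. The directions were thus shared with Cd34-low cells, and the monocyte median was larger there. The Jumonji members' lower depth and their share of Ctss-positive cells moved with the differences between the Cd34-high cells. Without Ctss-positive cells 133 genes were 2-fold higher and 47 lower, with a class I median of 0.49 and a lysosomal median of 0.80. That choice of cells also changes which genes reach the count minimum, so its gene counts are not on the same total.

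**Figure D5:**
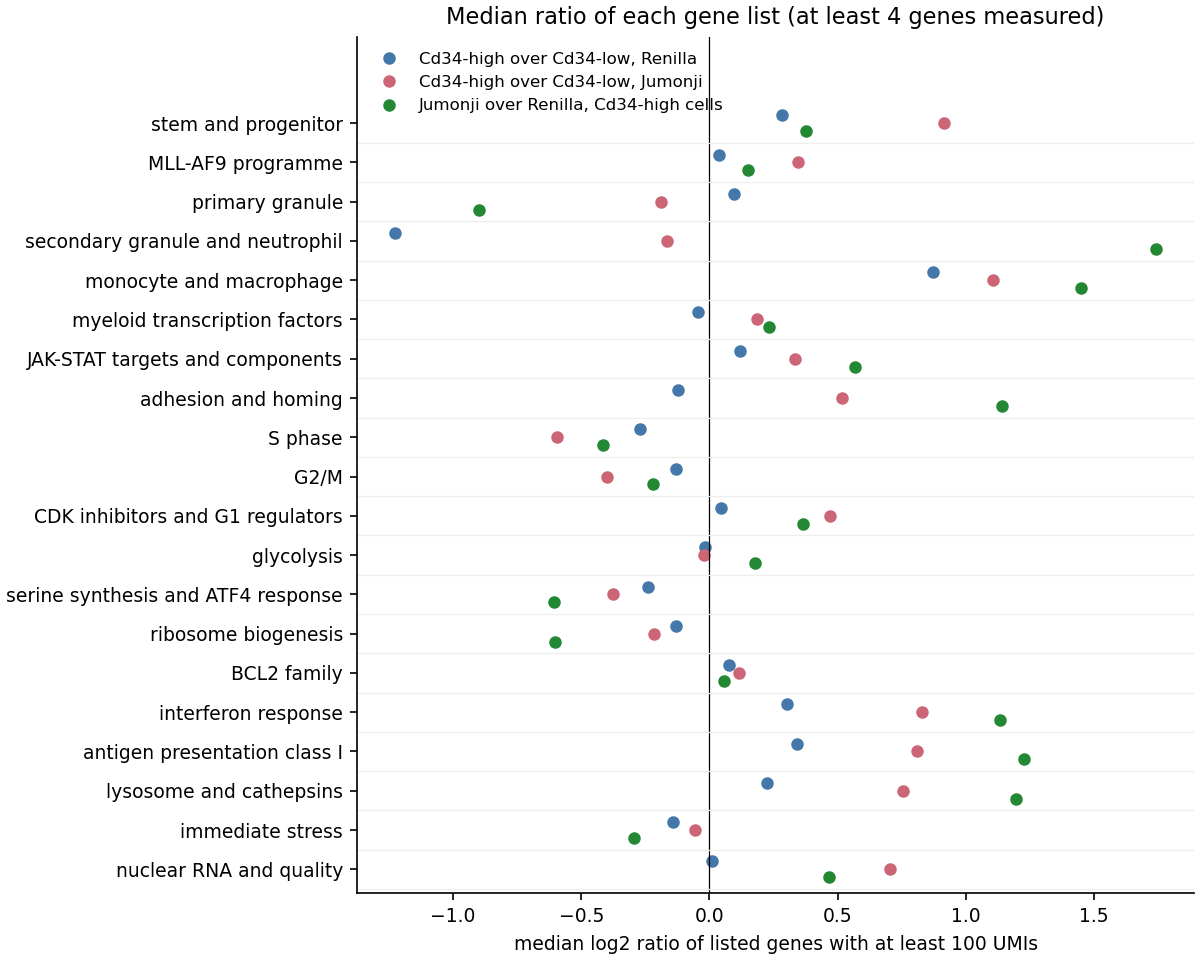
Median log2 ratio (x axis) of the genes of each list (y axis) with at least 100 UMIs, for Cd34-high over Cd34-low cells in the Renilla (blue) and Jumonji (red) library and for Jumonji over Renilla Cd34-high cells (green). Monocyte genes are above 0 and S phase genes below 0 in all 3 comparisons, while neutrophil genes are below 0 within libraries (-1.22 and -0.17) and at 1.74 between them.

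The difference between the libraries' high-to-low ratios, Jumonji minus Renilla, shows which genes followed Cd34 unequally. Of 5583 genes with at least 25 UMIs in each of the 4 groups, it was at least 1 in 90 (1.61%) and at most -1 in 32 (0.573%). With TMM scaling the counts were 63 and 51. Its counting interval lay farthest above 0 for Pla2g15, a lysosomal phospholipase gene (1.82, 1.13 to 2.50), Cyth4, a guanine exchange factor of blood cells (1.62, 1.10 to 2.14), and Ogt, which attaches O-GlcNAc to proteins (1.44, 1.06 to 1.83). It lay farthest below 0 for Ms4a3 (-2.48, -2.95 to -2.02), Stfa1 (-1.54), Marcksl1 (-1.51), Rad51ap1 (-1.58) and Elane (-0.97, -1.13 to -0.82). Lyz2 was at -1.12 (-1.49 to -0.76): Renilla Cd34-high and Cd34-low cells held 94.9 and 44.7 CPM, and the Jumonji ones held 201 and 206 CPM. Depth-matched, the differences were 1.20 for Pla2g15, 1.15 for Cyth4, 0.74 for Ogt, -1.27 for Ms4a3, -2.74 for Stfa1, -1.38 for Marcksl1, -0.45 for Rad51ap1, -0.23 for Elane and -1.56 for Lyz2. For Adgre1 (0.01, -0.49 to 0.50), Irf8 (-0.06, -0.56 to 0.44) and Fcgr3 (-0.02, -0.23 to 0.19) the interval held 0, which does not show that they were alike.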

How the data were processed

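The kit was 10x Chromium 3′, version 2, per the labels' protocols. The authors deposited raw UMI counts per gene and barcode, and the submitters' processing notes name Cell Ranger 1.3.1 and mm10. Which annotation release and cell-calling rule were used is not given in the sources used here. Of 27998 gene rows, 27645 were found in GENCODE M21 (mm10), used for coordinates. Of 651 Renilla and 652 Jumonji barcodes, 608 and 575 were kept, with 500 or more genes and no more than 10% mitochondrial UMIs. All excluded barcodes failed on the mitochondrial share. Kept cells held 14418743 and 12809661 UMIs. Counts were summed per group, scaled to CPM and compared as log2 ratios with exact conditional binomial intervals. Zeros were set to a floor of 3 counts a side. Scrublet (scanpy 1.11.5) marked 10 and 4 cells as doublets, which were kept. The members, the 32 gene lists and the rules were chosen with earlier results of these data known. Named genes were Cd34, Jmjd1c, its paralogues, Kit and IL-3 receptor genes, the 10 each way with the interval bound farthest from 0 per comparison, and per list the 2 highest, the 2 lowest and those past 2-fold. Hlf, Mecom, C1qa and Cx3cr1 fall outside that rule and were named after their values were seen. TMM factors came from edgeR 4.0.16. On simulated counts of the Renilla contrast (5051 genes), 200 of 200 genes changed 3-fold passed 2-fold, and 197 of 200 in the Jumonji contrast (4507 genes). The simulated sums held Poisson counting error only, without variation between cells. They check the counting step and not the spread over cells.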

Additional observations from a re-analysis of the deposited data

Results flagged for a closer look

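Cd34 RNA was also seen outside the kept cells. The 77 Jumonji barcodes left out for a mitochondrial share above 10% held 971 Cd34 UMIs, or 2302 CPM (exact Poisson interval 2159 to 2451), above the 1278 CPM of the Jumonji Cd34-high cells. The 43 such Renilla barcodes held 120 Cd34 UMIs, or 475 CPM (394 to 568), below the 698 CPM of the Renilla Cd34-high cells. The difference was not tested.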

How the results depend on the processing

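Each condition had 1 library, so counting intervals leave out variation between cultures, guides and preparations, and genes under 100 UMIs over both sides were not compared. No paired analysis was possible because each group has 1 library. Taking high and low within depth groups, the Renilla cut in both libraries and leaving out cells with a Ctss UMI were chosen after seeing the data. Counts of genes at least 2-fold higher and lower follow in that order, against 25 and 21 within the Renilla library, 171 and 98 within the Jumonji library, 313 and 106 between libraries and 20 and 12 in both libraries. The cause of these changes was not tested, except that a higher or lower count minimum alters the genes counted and thinning removes UMIs. Settings with other cells also change the UMIs summed, and with them the genes that reach the count minimum.

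Thinning to 10000 UMIs gave 7 and 13 (Renilla), 65 and 30 (Jumonji), 174 and 46 (between) and 4 higher in both. Choosing cells on 1 random part of their UMIs and measuring on the other gave 12 and 11, 83 and 47, 195 higher between libraries and 8 higher in both. Without the 25% most mature cells they were 10 and 7, 95 and 49, 65 lower between libraries, and 7 and 2 in both. A minimum of 200 UMIs gave 12 and 11, 93 and 45, 191 and 56, and 9 higher in both. No filter gave 1080 and 1238, 1822 and 1321, 2226 and 768, and 311 and 225. All deposited barcodes gave 461 and 236 (Jumonji) and 492 and 226 (between). Depth groups gave 73 and 44 (Jumonji) and 202 and 53 (between). Cells without a Ctss UMI gave 28 and 26 (Jumonji), 133 and 47 (between) and 5 higher in both. The Renilla cut gave 56 lower between libraries. The top and bottom 30% gave 13 higher (Renilla) and 12 higher in both, and equal weight per cell gave 33 lower (Renilla).

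Genes with a difference of ratios of at least 1, 90 higher and 32 lower, were 44 higher at a 5% mitochondrial limit, 404 and 75 with all barcodes, 29 higher when thinned, 184 and 69 with equal weights, 51 lower with TMM, 55 higher with cells chosen on separate UMIs, 39 higher in depth groups and 32 and 13 without Ctss-positive cells. Cd34 of Renilla members, 698 CPM, was 848 and 617 CPM in the top 10% and 30%, 752 thinned, 646 without mature cells and 577 measured on separate UMIs. Cd34 of Jumonji members, 1278 CPM, was 1123 at a 5% mitochondrial limit, 1921 with all barcodes, 1685 and 1087 in the top 10% and 30%, 1128 without mature cells, 1043 on separate UMIs, 1062 in depth groups and 922 without Ctss-positive cells. The median depth of Jumonji members, 14194 UMIs, was 6942.5 with all barcodes, 22106 in depth groups and 20722.5 without Ctss-positive cells.

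Among named genes at least 1.5-fold apart, 14 values changed sign, and of 777 values under 1.5-fold 88 did. Within a library these were Ctsg (Jumonji, 1.11 with all barcodes), S100a9 (Renilla, 0.26 without mature cells), Cenpf (Jumonji, 0.13 in depth groups) and Malat1 (Jumonji, -0.0739 without Ctss-positive cells). Between libraries they were BC100530 (-0.65 with all barcodes and -1.48 in the top 10%), Tfrc (0.22 with all barcodes), Stfa1 (0.85 thinned, 0.33 with the Renilla cut and 0.20 without Ctss-positive cells), Rrm2 (0.11 with the Renilla cut), and Hdc (0.0195), Malat1 (-0.20) and Sh3glb1 (-0.17) without Ctss-positive cells. Another 894 values of named genes moved beyond their counting interval and 2837 did not. Of list medians 179 moved and 1015 did not. The 20 genes higher in both libraries stayed above 0 in both under the cell choices tried. The 12 lower ones stayed below 0, except S100a9 without mature cells, a setting that used S100a9 itself to choose cells.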

Other observations

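Further lists held genes that moved with Cd34. Cpa3, the carboxypeptidase of mast cells and their progenitors, had 68 UMIs in Renilla Cd34-high and 4 in Cd34-low cells, and 59 and 9 in the Jumonji library, too few for a ratio under the count minimum. Hdc, the histamine-forming enzyme of basophils and mast cells, went the other way at -0.97 (-1.23 to -0.72) and -1.28 (-1.66 to -0.90), so these mast cell and basophil genes did not move as 1 group. H2-DMa, which loads peptides onto class II molecules, was higher at 0.80 (0.54 to 1.06) and 1.48 (1.26 to 1.69). Tfrc, the transferrin receptor of dividing cells, was lower at -0.62 and -1.27 (-1.79 to -0.77 for the latter).

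Adhesion and surface genes had unequal ratios in the libraries before depth was matched. In the Jumonji library the glycoprotein gene Cd52 was at 1.07 (0.96 to 1.19) and the tetraspanin gene Cd53 at 1.07 in Cd34-high over Cd34-low cells, and in the Renilla library they were at 0.19 (-0.04 to 0.41) and 0.42. Depth-matched, Cd52 was at 0.24 (0.12 to 0.36) in the Jumonji and 0.22 in the Renilla library, and Cd53 at 0.69 and 0.32. Between the Cd34-high cells of the libraries, Cd9, another tetraspanin gene, was at 3.79 (3.18 to 4.47), or 2.84 depth-matched. The nuclear RNA Malat1 was at 0.00 (-0.04 to 0.04) in the Renilla and 0.68 (0.64 to 0.72) in the Jumonji library, and the latter was 0.13 depth-matched and -0.0739 among cells without a Ctss UMI.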
